A study of Mus musculus with 6 samples.

Results

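The reactive astrocyte core genes described here are Gfap, Vim, Cd44, Steap4, Timp1, Cp, Cd109, Emp1, Aspg and Tm4sf1, 10 of the 50559 genes in the deposited tables, picked by name and each found as 1 row. They were measured by RNA sequencing of brain tissue from C57 mice in 6 libraries, 3 with the genotype label WNT3 control and 3 with the label WNT3 Overexpressing. The study asked which molecular changes accompany overexpression of Wnt3, a secreted Wnt ligand, in the auditory cortex. The labels do not give the age of the mice, the vector, promoter or cell type used to raise Wnt3, what the control mice received, or whether each library is a separate animal, and p-values here rest on the spread between libraries, which may be technical. The samples are labelled as auditory cortex, but the protocol for RNA extraction names striatum. Excitatory cortical neuron markers such as Slc17a7 and Tbr1 and striatal markers such as Drd1 and Ppp1r1b were both detected in all 6 libraries.

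Astrocytes answer injury, inflammation and infection with a graded programme called reactive gliosis. They enlarge their intermediate filament skeleton, change adhesion molecules on the cell surface and secrete protease inhibitors and acute-phase proteins. Cytokines that signal through gp130 and the transcription factor STAT3 are well known inducers of this programme. In widely used marker sets, Gfap, Vim, Cd44, Steap4, Timp1, Cp and Aspg belong to a pan-reactive group, whereas Cd109, Emp1 and Tm4sf1 belong to a group named A2, first described after ischaemia. Several of these genes are also active outside astrocytes: Vim in endothelium, fibroblasts and ependyma, Cd44 and Timp1 in leukocytes or fibroblasts, and Emp1 and Tm4sf1 in vessels.

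Because STAT factors are tied to this programme, the start regions of the members were searched for TTCNNNGAA, the palindrome such factors bind, and for TGANTCA, an AP-1 type motif; both read the same on either strand. RefSeq windows of 300 bases (250 before to 50 after a gene start, GRCm38.p6) were found for 9 of the 10 members, 11 windows in all, with none for Cd109. TTCNNNGAA was present in 3 members, Gfap, Steap4 and Emp1, against 9.55% of all 27025 genes with a window. TGANTCA was present in 2 members, Cp and Emp1, against 8.97% of genes. The 4 matches of the first motif are shown with 10 bases on each side, 5′ to 3′ on the strand of the gene, with the motif in capitals, at chr11:102897184-102897212 (minus strand), chr5:7960346-7960374 (plus strand), chr6:135362801-135362829 (plus strand) and chr6:135362899-135362927 (plus strand) in this order:
Gfap: atgggggtgcTTCCAGGAAgtcaggggca
Steap4: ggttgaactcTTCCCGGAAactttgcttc
Emp1, distal: tacaacagggTTCTTTGAAttgatggctc
Emp1, proximal: tccagactgaTTCATAGAAactcctttaa
The Gfap match began 2 bases before the RefSeq gene start and ran across it. In Steap4 it began 116 bases before the start. The Emp1 matches began 120 and 22 bases before the start, and the proximal one overlapped a TGANTCA match that began 25 bases before it. Gene starts differ between annotations: the GENCODE M21 genes of Gfap, Vim, Steap4, Emp1 and Aspg begin upstream of the RefSeq start used here. Of the 250 upstream bases, 54 of the first Emp1 window and 195 of the second Cp window lie in GENCODE exons. So do 4 of Aspg and all 250 of Vim. In Steap4, 98 of them lie in exons of Gm30835 or Steap4. The proximal Emp1 match lies in an exon of Emp1 itself, as does the TGANTCA match that overlaps it, whereas the Steap4 match and the distal Emp1 match lie outside the exons of their genes. A match of letters is a description of the sequence and says nothing of whether a factor was bound in these samples.

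Total counts ran from 42614588 to 71803617 per library. Wnt3 itself was at 2.70, 1.91 and 1.74 CPM (counts per 1000000 reads after TMM scaling) in the 3 controls, against 98.8, 7.45 and 8.71 CPM with overexpression, above every control in each library. Control 2 stood apart from the other 5 libraries: the tenth of genes with the shortest transcripts had a median 0.98 higher on the log2 scale than their mean over the libraries, and the tenth with the longest transcripts a median of -0.68, whereas the other libraries ranged from -0.22 to -0.13 and from 0.08 to 0.17. For fitted changes and medians that moved by more than 1.5 times or changed sign when control 2 was left out, both are given. Counts of genes in the marker lists use all libraries unless stated. Several of them differ without control 2, such as those of the A1, A2, gliosis, microglial and ependymal genes.

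The 10 genes spanned a wide range of levels. On the authors' length-scaled TPM values, which allow genes to be compared, the control means ran in the order Gfap (87.0 ± 27.9), Vim (21.5 ± 2.65), Cp (7.89 ± 3.23), Tm4sf1 (7.42 ± 0.93), Timp1 (1.99 ± 0.77), Aspg (1.58 ± 0.45), Emp1 (1.34 ± 0.79), Cd44 (0.80 ± 0.34), Cd109 (0.39 ± 0.34) and Steap4 (0.20 ± 0.03; SD, n = 3 throughout). Gfap lay above Vim, Vim above Cp and Tm4sf1 above Timp1 in every pairing of control libraries. Ranges overlapped between Cp and Tm4sf1, among Timp1, Aspg and Emp1, between Emp1 and Cd44, between Cd44 and Cd109, and between Cd109 and Steap4, so these neighbours in the order did not differ beyond their spread. In overexpression the mean of Cp was 19.3 ± 10.2 TPM and that of Tm4sf1 7.72 ± 0.20 TPM (SD, n = 3), and their ranges no longer overlapped.

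**Figure D1:**
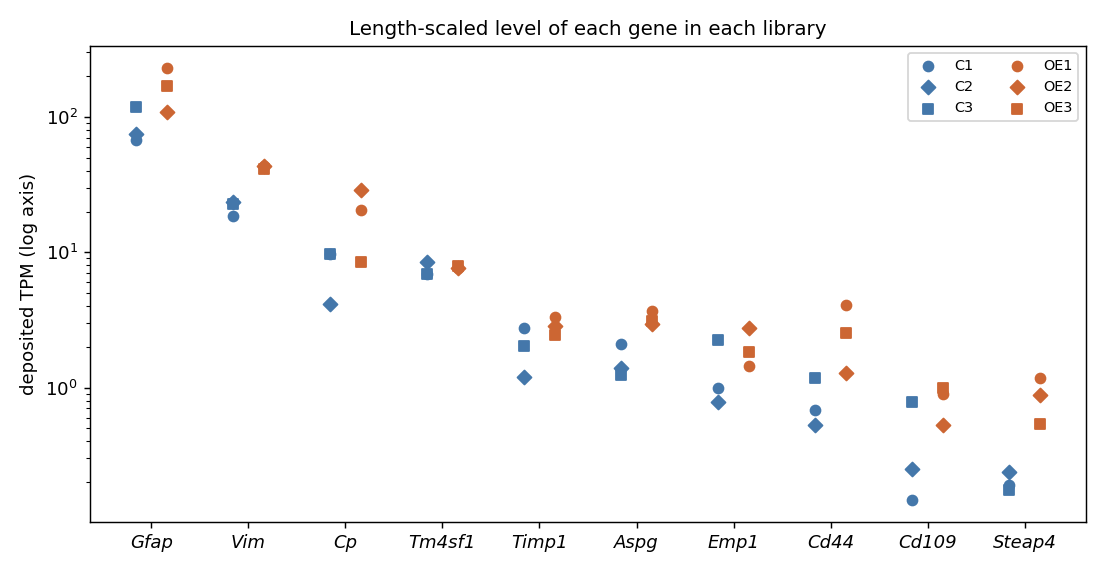
Deposited TPM of the 10 genes in each library on a log axis, ordered by control mean, with controls (C1 to C3) in blue on the left of each pair and overexpression libraries (OE1 to OE3) in orange on the right. Gfap and Vim sit highest in both groups, and Steap4 has the lowest control mean, with values of 0.17 to 0.24 TPM.

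In the comparison of overexpression with control, 9 of the 10 genes had a fitted log2 fold change above 0 and Tm4sf1 one below 0; without control 2, all 10 were above 0. Steap4, Cd44 and Cp had the largest fitted changes, and in Vim, Steap4 and Aspg every overexpression library lay above every control. In bulk tissue, more cells of a type and more RNA per cell cannot be told apart. By the quasi-likelihood test of edgeR, adjusted over 22360 genes by the Benjamini-Hochberg method at 0.05, no member was called, and 0% of all genes were; the adjusted p of the members ran from 0.822 to 0.841. DESeq2 called 0 members, against 0.286% of all tested genes, and limma voom called 0.

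At an unadjusted edgeR p under 0.05 there were 5 members, all with the higher mean in overexpression (Gfap, Vim, Cd44, Steap4 and Cp), against 1.86% of all tested genes in that direction. Counts with 1 library left out, all in the same direction, varied with the library. The count was 2 without control 1 (2.47% of tested genes), 6 without control 3 (2.65%), 3 without overexpression library 1 (1.24%), 4 without library 2 (1.14%) and 3 without library 3 (1.65%). Without control 2 it was 4, Gfap, Vim, Steap4 and Aspg, against 3.07% of genes, so that Cd44 and Cp were no longer among them. DESeq2 gave 6 members an unadjusted p under 0.05, against 2.30% of genes in that direction, and voom gave 4, against 2.18%. Steap4 was among them in each of these fits. Groups that did not overlap, with overexpression higher, were found in 3 members in CPM (5.89% of tested genes) and in 4 members in TPM (10.8% of tested genes), the added one being Cd44. Without control 2 there were 4 in CPM (11.2% of genes), and the added one was Tm4sf1. The median log2 fold change was 0.73 over the members and -0.0069 over all tested genes. Without control 2 these medians were 0.86 and 0.017. On the TPM scale the median over all genes itself lay at 0.18 with a pseudocount of 1 and at 0.23 with a pseudocount of 0.1, and the members' medians were 0.68 and 1.01.

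**Figure D2:**
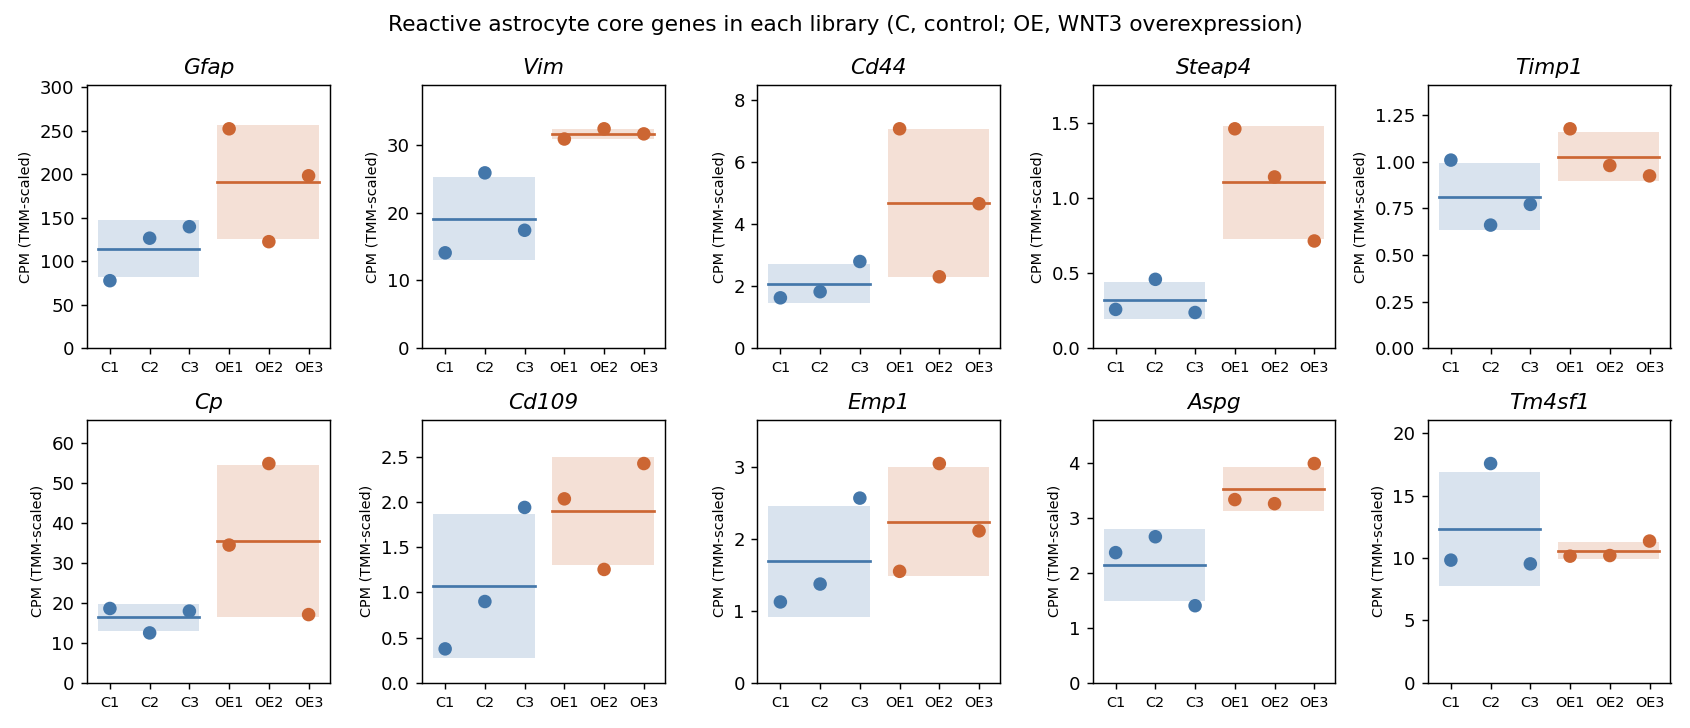
TMM-scaled CPM of each of the 10 genes in the 3 controls (C1 to C3, blue) and 3 overexpression libraries (OE1 to OE3, orange), with the group mean as a line and 1 SD on each side as a band. Vim, Steap4 and Aspg have groups that do not overlap, and Tm4sf1 has its highest value in control 2.

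Gfap and Vim encode the intermediate filament proteins of astrocytes, GFAP being the classical marker of gliosis and vimentin its partner in reactive and immature astrocytes. Gfap (ENSMUSG00000020932.14, chromosome 11, positions 102887336 to 102900912, minus strand, mm10) was at 77.5, 126 and 140 CPM in the controls, in order of their number, against 252, 122 and 198 CPM with overexpression. Overexpression libraries 1 and 3 lay above all controls, and library 2 lay within the control range. The means were 114 ± 32.7 and 191 ± 65.2 CPM (SD, n = 3), which gave a fitted difference of 0.74 ± 0.31 on the log2 scale (SE; 95% interval 0.03 to 1.45; adjusted p = 0.822). Its start holds the first of the STAT palindromes printed above. The windows of Vim, Cd44 and Cp hold none.

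Vim (ENSMUSG00000026728.9, chromosome 2, positions 13573927 to 13582826, plus strand) had closely grouped overexpression values, at 30.9, 32.4 and 31.7 CPM. Its control values were 14.1, 25.9 and 17.4 CPM, with control 2 the highest. The means were 19.1 ± 6.09 and 31.7 ± 0.76 CPM (SD, n = 3), and the fitted change was 0.73 ± 0.24 on the log2 scale (SE; 95% interval 0.18 to 1.28; adjusted p = 0.822). Vim transcripts are short, at percentile 22.3 of relative transcript length among genes with a mean of 1 CPM or more. Without control 2 its log2 fold change was 1.01 ± 0.13 (SE; adjusted p = 0.345), and with the trend on transcript length removed from every library it was 0.93 (adjusted p = 0.373 by edgeR). In TPM, controls were at 18.5, 23.4 and 22.7 and overexpression libraries at 43.3, 43.6 and 41.3.

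Cd44, Cd109, Emp1 and Tm4sf1 encode proteins of the cell surface. CD44 is the hyaluronan receptor that links cells to the matrix, CD109 a membrane-anchored protein that binds TGF-beta and limits its signalling, EMP1 an epithelial membrane protein with several membrane spans, and TM4SF1 a small tetraspan-like protein abundant in endothelium. Cd44 (ENSMUSG00000005087.17, chromosome 2, positions 102811141 to 102901665, minus strand) was at 1.62, 1.82 and 2.79 CPM in controls against 7.06, 2.30 and 4.65 CPM in overexpression. Overexpression libraries 1 and 3 were high and library 2 lay within the control range, as for Gfap. The log2 fold change was 1.17 ± 0.44 (SE; 95% interval 0.15 to 2.18; adjusted p = 0.822). It was 0.75 without overexpression library 1.

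Cd109 (ENSMUSG00000046186.8, chromosome 9, positions 78615546 to 78716253, plus strand) was at 0.38, 0.90 and 1.94 CPM in controls, from 16, 49 and 98 reads, and at 2.03, 1.25 and 2.42 CPM in overexpression. Control 3 lay above overexpression library 2, so the groups overlapped. The fitted log2 fold change of 0.82 ± 0.57 (SE) had a 95% interval from -0.49 to 2.14, and it was 0.43 without control 1 and 1.57 without control 3.

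Emp1 (ENSMUSG00000030208.15, chromosome 6, positions 135362545 to 135383173, plus strand) was at 1.13, 1.38 and 2.57 CPM in controls and 1.55, 3.05 and 2.12 CPM in overexpression. Control 3 was the second highest of the 6 libraries. The log2 fold change of 0.40 ± 0.42 (SE) had a 95% interval from -0.57 to 1.38, and it ran from 0.12 without overexpression library 2 to 0.84 without control 3. Upstream of its RefSeq start lie 2 of the STAT palindromes printed above.

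Tm4sf1 (ENSMUSG00000027800.14, chromosome 3, positions 57285611 to 57301988, minus strand) was the member with the lower mean in overexpression. It was at 9.83, 17.6 and 9.53 CPM in controls and 10.2, 10.2 and 11.4 CPM in overexpression, so that control 2 was high and the other 5 libraries lay close together. The log2 fold change was -0.22 ± 0.27 (SE; 95% interval -0.85 to 0.41) with control 2 and 0.13 ± 0.14 (SE) without it. On the TPM scale, with a pseudocount of 1, it was 0.055. The interval with all libraries holds modest differences in either direction.

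Steap4, Cp, Timp1 and Aspg encode enzymes and secreted proteins. STEAP4 is a membrane metalloreductase that reduces iron and copper and is induced by inflammatory cytokines. Its gene (ENSMUSG00000012428.9, chromosome 5, positions 7960457 to 7982213, plus strand) was at 0.26, 0.46 and 0.24 CPM in controls, from 11, 25 and 12 reads, and at 1.46, 1.14 and 0.71 CPM in overexpression, from 82, 71 and 51 reads. Every overexpression library lay above every control. The log2 fold change was 1.78 ± 0.48 (SE; 95% interval 0.67 to 2.89), a 3.44-fold difference with an interval from 1.60-fold to 7.40-fold, and the largest fitted change among the 10 genes (adjusted p = 0.822). By unadjusted p it ranked 119 among the 22360 tested genes. The STAT palindrome printed above lies upstream of its start.

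Ceruloplasmin, the product of Cp, is a copper-carrying ferroxidase that astrocytes hold on their surface and use in iron export. The gene (ENSMUSG00000003617.16, chromosome 3, positions 19957054 to 20009145, plus strand) was at 18.6, 12.5 and 18.0 CPM in controls, and stood at 34.5, 54.9 and 17.1 CPM in overexpression. Overexpression libraries 1 and 2 were high, and library 3 lay within the control range. The log2 fold change was 1.12 ± 0.39 (SE; 95% interval 0.22 to 2.02; adjusted p = 0.822), and it was 0.65 without overexpression library 2. Exons of Cp share 108 bases with exons of Hps3 on the other strand, and the strand setting of the counting is not given in the sources used here, so some reads may belong to Hps3.

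Timp1 encodes a secreted inhibitor of matrix metalloproteinases. The gene (ENSMUSG00000001131.11, chromosome X, positions 20870166 to 20874735, plus strand) was at 1.01, 0.66 and 0.77 CPM in controls, from 43, 36 and 39 reads, and at 1.18, 0.98 and 0.92 CPM in overexpression, from 66, 61 and 66 reads. Control 1 lay above overexpression libraries 2 and 3. The log2 fold change of 0.34 ± 0.36 (SE) had a 95% interval from -0.50 to 1.17, and it was 0.52 without control 1 and 0.21 without control 2. Timp1 lies wholly within Syn1, a synaptic vesicle gene on the other strand, with no shared exon bases; Syn1 was at 257 to 338 CPM, so unspliced Syn1 reads may have been counted for Timp1 if strand was not used.

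Aspg encodes an asparaginase. Its gene (ENSMUSG00000037686.6, chromosome 12, positions 112106679 to 112127559, plus strand) was at 2.37, 2.66 and 1.40 CPM in controls, and stood at 3.34, 3.26 and 3.99 CPM in overexpression. The groups did not overlap. The means were 2.14 ± 0.66 and 3.53 ± 0.40 CPM (SD, n = 3), and the log2 fold change of 0.72 ± 0.32 (SE) had a 95% interval from -0.02 to 1.46 (adjusted p = 0.822). Without control 2 it was 0.91 ± 0.29 (SE; adjusted p = 0.759).

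**Figure D3:**
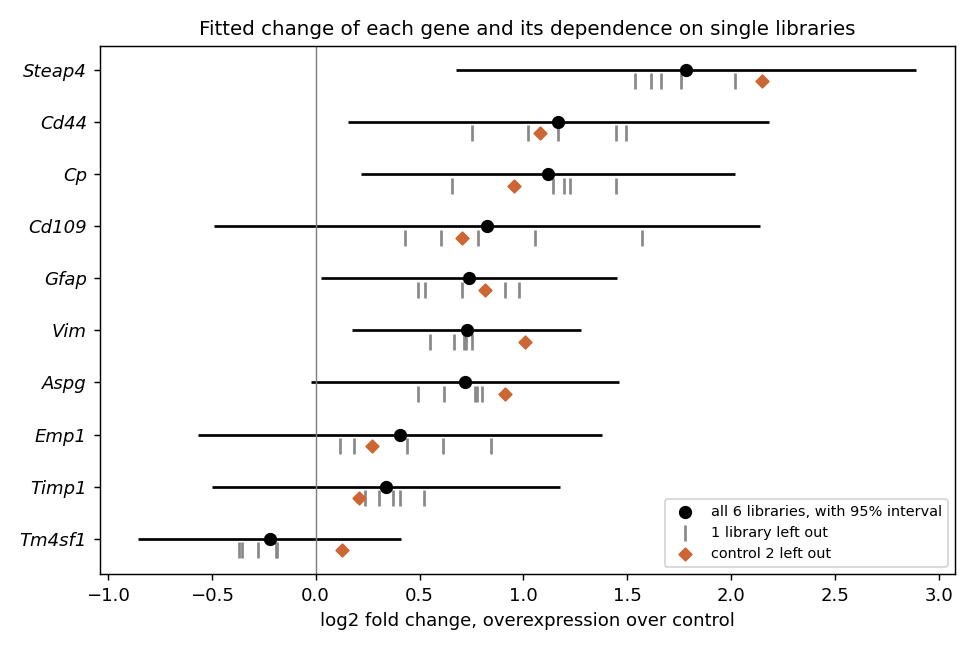
Fitted log2 fold change of each gene, overexpression over control, with its 95% interval (black), and the values with 1 library left out (grey ticks; orange diamonds for control 2). Steap4 lies farthest to the right at 1.78, and Tm4sf1 crosses 0, from -0.22 with all libraries to 0.13 without control 2.

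The members did not share 1 pattern over the overexpression libraries. Library 1 held the highest value of 4 members (Gfap, Cd44, Steap4 and Timp1), library 2 that of 3 (Vim, Cp and Emp1) and library 3 that of 2 (Cd109 and Aspg), while control 2 held that of Tm4sf1. All 10 lowest values were in controls, 5 of them in control 1. The median difference of the members from the control mean, in log2 CPM, was -0.29, 0.11 and 0.052 in the controls, against 0.92, 0.57 and 0.80 with overexpression, so the 2 sets of library medians did not overlap. Wnt3, at 98.8 CPM in library 1 and under 10 CPM in libraries 2 and 3, varied among these libraries more than the members' median did.

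Vim and Gfap lay closest to the members' median profile over the 6 libraries, with root mean squared differences of 0.24 and 0.26 in centred log2 CPM, and Steap4 and Cp lay farthest from it, at 0.61 each. Among 13940 other named genes with a mean of 1 CPM or more, the 5 nearest to that profile were Ednra, a receptor for endothelin (0.13), Ggt5, a gamma-glutamyltransferase (0.15), the mitochondrial transfer RNA gene TrnD (0.16), Ssc5d, a scavenger receptor family gene (0.16), and Sla, an adaptor of antigen receptor signalling (0.16). Ednra was at 2.37, 2.57 and 3.32 CPM in controls and 5.62, 3.87 and 4.22 CPM in overexpression. With 6 libraries and so many genes, near profiles are a description only.

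The other genes of the same marker sets were read from the same fit, and no gene of any list passed the adjusted test. All 6 other pan-reactive genes had the higher fitted value in overexpression, with a median log2 fold change of 1.09, and 4 of them had an unadjusted edgeR p under 0.05. Lcn2 encodes lipocalin 2, which binds iron-carrying siderophores in the acute phase. It was at 0, 0.39 and 0.14 CPM in controls and 7.47, 37.1 and 1.88 CPM in overexpression. Low in controls, it passed the low-count filter only through the overexpression libraries. Serpina3n, a protease inhibitor, was at 7.32, 7.89 and 7.64 CPM in controls and 18.0, 34.3 and 14.7 CPM in overexpression. Both were highest in overexpression library 2, as was Cp.

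The A1 set, a group first described after inflammatory stimulation, had 11 of 12 genes tested, 9 higher and 2 lower, with a median of 0.46 and 1 gene at an unadjusted edgeR p under 0.05. That gene was Fkbp5, a chaperone cofactor induced by glucocorticoids, at 20.2, 18.9 and 30.3 CPM in controls and 29.6, 83.3 and 48.5 CPM in overexpression, with groups that overlapped. Gbp2, an interferon-induced GTPase, was second by p, at 3.90, 3.59 and 3.94 CPM in controls and 7.72, 5.25 and 4.31 CPM in overexpression. Without control 2, H2-T23, H2-D1, Fkbp5 and Srgn were higher at an unadjusted edgeR p under 0.05, against 3.07% of tested genes. Of the 9 other A2 genes, 6 were tested, 5 of them higher, with a median of 0.18 and none at an unadjusted p under 0.05; the smallest p were those of Ptgs2, the inducible cyclooxygenase (log2 fold change 0.62 ± 0.33, SE), and S100a10, an annexin partner (-0.66 ± 0.38, SE). S100a10 was at 18.9, 41.0 and 13.6 CPM in controls and 16.1, 15.5 and 15.0 CPM in overexpression, with control 2 high, and its value was -0.060 ± 0.17 (SE) without that library; that of Ptgs2 was 0.41 ± 0.31 (SE). Cd109, Emp1 and Tm4sf1, the A2 genes among the members, likewise had groups that overlapped. Of the other A2 genes, only Cd14 was at an unadjusted edgeR p under 0.05 without control 2, and it was higher.

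Of 14 tested gliosis genes, 10 were higher, with a median of 0.23, and 1 had an unadjusted edgeR p under 0.05. It was Tgfbi, a TGF-beta induced matrix protein, at 1.81, 2.15 and 1.58 CPM in controls and 3.62, 4.34 and 3.61 CPM in overexpression. For Anxa2, an annexin, the fitted change was 0.62 ± 0.33 on the log2 scale (SE), and without control 2 it was 1.04 ± 0.21 (SE). Without that library, Tgfbi, Anxa2 and Lgals3 were the gliosis genes at an unadjusted edgeR p under 0.05, all higher (3.07% of tested genes were). Of 13 tested genes of the gp130-STAT3 route, 11 were higher, with a median of 0.41, or 0.21 without control 2, and 1 had an unadjusted edgeR p under 0.05. It was Il6ra, the interleukin-6 receptor, at 3.05, 2.13 and 5.36 CPM in controls and 8.13, 9.72 and 4.85 CPM in overexpression, and its unadjusted p did not stay under 0.05 without control 2. Socs3, the feedback inhibitor that STAT3 induces, stood at 0.79 ± 0.36 (SE) on the log2 scale, and at 1.10 ± 0.31 (SE) without control 2. Without that library, Socs3 and Bcl3 were the genes of this route at an unadjusted edgeR p under 0.05. Bcl3 then had no count in the controls left, so it passed the low-count filter only through the overexpression libraries. The cytokine genes Il6 and Osm were too low to be tested. Osm had no count in any control and was at 0.16, 0.24 and 0 CPM in overexpression.

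General astrocyte markers had a median near 0. Over their 12 genes, 9 higher and 3 lower, the median was 0.043 on the log2 scale and -0.045 without control 2. Their summed level was 5719 to 9438 CPM in controls, the lowest in control 2, and 8148 to 8540 CPM in overexpression. S100b, a calcium-binding protein of astrocytes, was the 1 marker with an unadjusted edgeR p under 0.05, at 121, 235 and 119 CPM in controls and 92.5, 93.3 and 115.9 CPM in overexpression (2.80% of all tested genes were lower at that p). Its log2 fold change was -0.65 ± 0.28 (SE) with control 2 and -0.25 ± 0.12 (SE) without it, no longer at an unadjusted p under 0.05. Without control 2, Slc1a2 (-0.265 ± 0.081, SE) and Slc4a4 (-0.32 ± 0.089, SE) were lower at an unadjusted edgeR p under 0.05. With all libraries they stood at 0.0525 and 0.032. Sox9, a transcription factor of the lineage, stood at -0.71 ± 0.34 (SE) on the log2 scale, with control 2 the highest at 55.2 CPM, and at -0.17 ± 0.14 (SE) without that library.

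Some markers of other cell types that also use these genes had higher sums in overexpression as well. All 10 endothelial markers were tested and 8 were higher, with a median of 0.47 and 3 at an unadjusted edgeR p under 0.05. Their summed level was 281 to 292 CPM in controls and 360 to 536 CPM in overexpression, highest in library 2, with Flt1 and Pecam1 the markers of smallest p (log2 fold changes 0.86 ± 0.20 and 0.55 ± 0.20, SE). Of 14 leukocyte markers, 7 were tested and all 7 were higher, 5 of them at an unadjusted edgeR p under 0.05; the summed level was 3.59 to 5.01 CPM in controls and 55.0, 44.3 and 11.2 CPM in overexpression libraries 1 to 3. Among them Mmp8, a neutrophil collagenase, was at 1.07, 2.64 and 0.50 CPM in overexpression and had no count in any control. S100a8, a calprotectin subunit, was at 0.14, 0.50 and 0.14 CPM in controls and 6.17, 16.9 and 1.37 CPM in overexpression. Genes this low in controls could pass the low-count filter only through the overexpression libraries. The number of higher leukocyte markers was therefore partly set by that filter. Ly6g, not tested, had no count in any control and was at 0.12, 0.18 and 0 CPM in overexpression. The part of endothelial, pericyte and leukocyte RNA in the members' values was not tested.

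Meningeal fibroblast markers had 9 of 10 genes higher, with a median of 0.65 and none at an unadjusted p under 0.05, and their sums overlapped between the groups (30.1 to 75.3 CPM in controls, 31.4 to 104 CPM in overexpression). Dcn and Col3a1, a matrix proteoglycan and a fibrillar collagen, had the smallest p, with log2 fold changes of 0.83 ± 0.45 and 1.21 ± 0.66 (SE). Without control 2 the value of Col3a1 was 0.77 ± 0.54 (SE). Ependymal markers were at 7.51 to 32.9 CPM summed in controls, the highest in control 2, and 8.70 to 15.0 CPM in overexpression, with 7 of 8 lower; the median was -0.80, or 0.25 without control 2. Dynlrb2 and Foxj1, both genes of motile cilia, had the smallest p of that list (log2 fold changes -1.01 ± 0.46 and -0.76 ± 0.41, SE). Without control 2 that of Foxj1 was -0.37 ± 0.35 (SE). The part of meningeal and ependymal RNA in the members' values was not tested.

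Choroid plexus markers, a tissue that also makes ceruloplasmin, had 5 of 8 genes tested and all 5 higher. None had an unadjusted edgeR p under 0.05. Their summed level was 2.77 to 5.12 CPM in controls and 7.99, 4.27 and 3.46 CPM in overexpression libraries 1 to 3. These sums overlapped between the groups. Otx2 was at 0 in every control and was detected only in overexpression library 2, at 0.064 CPM. The part of choroid plexus RNA in the values of Cp was not tested. Pericyte and smooth muscle genes had 5 of 8 higher, with a median of 0.039, or 0.12 without control 2. The 1 gene of this list at an unadjusted edgeR p under 0.05, Tagln, was lower (2.80% of tested genes were). It was at 0.80, 1.41 and 1.23 CPM in controls and 0.50, 0.40 and 0.57 CPM in overexpression. The summed level was 195 to 216 CPM in controls and 224 to 265 CPM in overexpression, without overlap. Much of it was Rgs5, at 92.1 to 133 CPM in controls and 131 to 159 CPM in overexpression, with groups that overlapped. The median over microglial genes was -0.22 (7 of 8 lower), or 0.0081 without control 2, and that over oligodendrocyte genes -0.36 (7 of 8 lower), or -0.13 without control 2. Oligodendrocyte precursor markers were split 3 and 3, with a median of 0.048, or -0.012 without control 2. Cortical neuron markers had a median of 0.060 (5 of 8 higher), or 0.035 without control 2, and striatal neuron markers one of -0.52 (7 of 8 lower). Penk, an enkephalin precursor of striatal neurons, was at 26.4, 53.0 and 70.1 CPM in controls and 12.6, 11.1 and 29.1 CPM in overexpression, with groups that overlapped, and the part of the dissected region in the members' values was not tested.

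**Figure D4:**
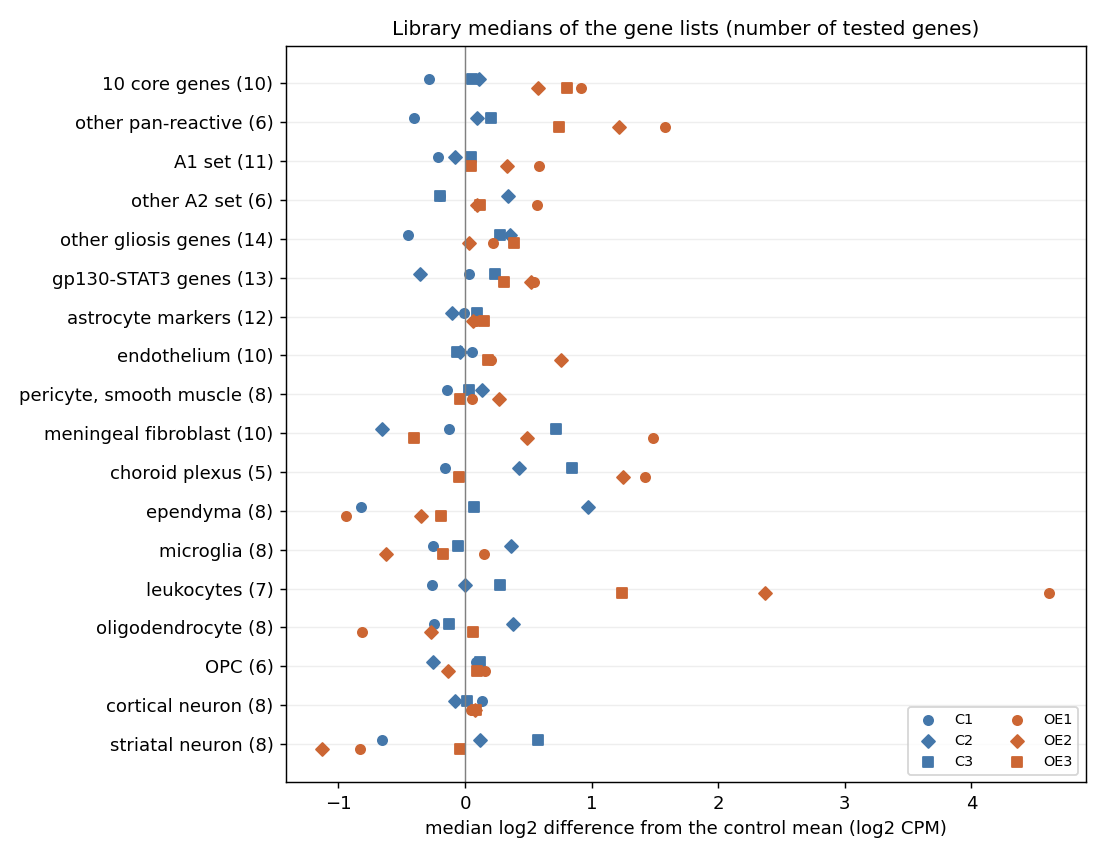
Median log2 CPM difference from the control mean in each library for the 10 core genes and the other gene lists, with the number of tested genes in brackets, controls in blue and overexpression libraries in orange (circle, diamond and square for libraries 1, 2 and 3). The core genes lie at -0.29 to 0.11 in controls and 0.57 to 0.92 in overexpression, whereas astrocyte markers lie at -0.11 to 0.09 and 0.06 to 0.15.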

How the data were processed

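RNA was extracted with Trizol and made into strand-specific TruSeq libraries, per the labels' protocols. Tools named without a role in the submitters' processing notes are STAR 2.5.3a, FastQC 0.11.5, DESeq 1.16.1 and Cuffnorm, with the build mm10. The authors deposited a table of whole-number counts per gene and a table of TPM values (per the file headers 1 column per library, each TPM column scaled to 1000000). Not given in the sources used here are the counting program, its annotation and its strand setting. Columns were matched to samples by the library name in the labels, and groups came from the titles.

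Counts were tested with edgeR 4.0.16 in R 4.3.3: filterByExpr (minimum count 10), TMM factors, glmQLFit and glmQLFTest on group alone (residual degrees of freedom: 4), with p-values adjusted over 22360 genes by the Benjamini-Hochberg method at 0.05. CPM are TMM-scaled. Standard errors (SE) follow from the log2 fold change and the F value. An exact two-sided test of 3 against 3 libraries cannot go below 0.1 and was not used. Coordinates are from GENCODE M21 (mm10), in which all 10 members were found. Relative transcript length is the ratio of deposited counts to TPM. List medians by library use log2 CPM with a prior count of 2.

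Alternatives were RLE and upper-quartile factors, no low-count filter, a mean of 1 CPM or more, DESeq2 1.42.0, limma 3.58.1 (voom, log2(TPM + 1) with no filter or a mean TPM of 0.5 or more, and log2(TPM + 0.1) with that filter), a replicate block, each library left out, and an adjusted p of 0.1. Removal of a lowess trend on length (span 0.3) was added after seeing the data. The members and the 18 lists were chosen with earlier results of these data known. The text names all members, up to 2 genes of smallest p in each other list, and the 5 nearest profiles. Genes named after their values were seen were Slc17a7, Tbr1, Drd1, Ppp1r1b, Slc1a2, Slc4a4, Bcl3, Osm, Il6, Ly6g, Otx2, Hps3, Syn1 and Gm30835. The same holds for Fezf2, Drd2, H2-T23, H2-D1, Srgn, Cd14 and Lgals3.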

Additional observations from a re-analysis of the deposited data

How the results depend on the processing

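No member was called under any of the alternatives run, and the count of called genes over the whole table was 0 in all of them except DESeq2, which called 64. The median of the 10 members was between 0.54 and 0.88 with single libraries left out, and it was 1.01 with log2(TPM + 0.1), where the median of all genes was 0.23. The number of members with an unadjusted p under 0.05 was between 2 and 6 with single libraries left out. With the replicate number as a block it was 3. The labels do not say whether the numbers pair the samples. Deviations of same-numbered libraries from their group means correlated at 0.080, -0.023 and -0.049 over genes. Control 1 correlated better with overexpression library 2 (0.125) than with its own number. With 3 libraries per group and control 2 apart from the rest, these values cannot decide whether the samples are paired. Of the values of single members under the alternatives, 164 kept the direction and the side of the threshold and 4, all of Tm4sf1, turned from below 0 to above 0: 0.055 with log2(TPM + 1) with and without the filter, 0.062 with log2(TPM + 0.1) and 0.13 without control 2, at the top of a range over left-out libraries that began at -0.37. On the log2(TPM + 1) scale, which understates low genes, Steap4 was at 0.62 and Cd109 at 0.39. A minimum of 1 CPM left 8 members to be tested, without Steap4 and Timp1. Low counts limit Steap4, Cd109, Timp1 and Emp1, the members with under 200 reads in every library.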
